A study of Mus musculus with 14 samples.

Results

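The phagocyte NADPH oxidase is described here through 5 of its subunit genes, Cybb, Cyba, Ncf1, Ncf4 and Rac2, which were taken by symbol from both count tables. All 5 symbols were present among the 55367 of each table. All 5 also passed the filter on low counts in both experiments, which kept 15794 genes in the first and 13456 in the second. The values are messenger RNA levels; no protein, assembled enzyme or superoxide was measured.

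The oxidase is the enzyme with which neutrophils, macrophages and eosinophils turn oxygen into superoxide during the respiratory burst. Cybb encodes gp91phox, the catalytic membrane subunit that carries electrons across the membrane, and Cyba encodes p22phox, its membrane partner that docks the cytosolic subunits. Ncf1 encodes the organizer p47phox and Ncf4 encodes p40phox, both cytosolic proteins that move to the membrane on activation. Rac2 is the blood-cell GTPase that joins the complex in its GTP-bound state. Loss of subunits of this enzyme is the cause of chronic granulomatous disease, in which phagocytes take up microbes but kill them poorly.

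The samples were 14 libraries of polyadenylated RNA from wild-type mouse bone marrow cells depleted of mature lineages, grown with SCF, IL6 and IL3. The first experiment had 6 cultures, of which 3 carried a lentivirus with luciferase and 3 carried a lentivirus with SETBP1-D868N, a mutant of the nuclear protein SETBP1. In the second, every culture carried SETBP1-D868N and received DMSO (4 cultures) or 2.5 µM PF-9363 (4 cultures) for 4 days. The compound inhibits histone acetyltransferases of the MYST family. The second experiment has no cultures without SETBP1-D868N, so PF-9363 was not seen here in control cells. The age and number of donor animals, the promoter of the vector and any selection of transduced cells are not given in the sources used here. Nothing in the labels says that replicates came from separate animals, so p-values measure the spread between these libraries, which may be partly technical.

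Library totals were 60147266 to 68730322 counts for luciferase and SETBP1-D868N, against 7083731 to 10359093 counts for DMSO and PF-9363. Values are CPM, the count as a share of the library total after scaling by the trimmed mean of M-values (TMM), and the experiments were scaled and tested apart. Each of the 5 genes had at least 1127 counts in every library. Luciferase library 1 stood apart from libraries 2 and 3 of its group (chi-square per degree of freedom 27.1 and 27.6, against 2.27 between those 2). Without it all 5 genes were still called lower, with log2 fold changes of −0.75 for Cybb, −0.22 for Cyba, −0.37 for Ncf1, −0.36 for Ncf4 and −0.21 for Rac2. The labelled origin was checked on markers: Ptprc, the pan-leukocyte gene CD45, stood at 434 CPM with luciferase, 327 CPM with SETBP1-D868N, 483 CPM with DMSO and 978 CPM with PF-9363, and the lymphoid genes Cd3e and Cd8a had at most 3 counts in any library. The label describes cells depleted of mature lineages, yet S100a9, a gene of maturing neutrophils, stood at 7257 CPM with luciferase and 7192 CPM with DMSO. These are bulk samples, in which fewer cells of a type and less RNA per cell cannot be told apart.

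The 5 genes lie on 4 chromosomes of GRCm38 in GENCODE M21. Cybb lies on chromosome X (9435252 to 9487771, minus strand), Cyba on chromosome 8 (122424776 to 122432930, minus strand) and Ncf1 on chromosome 5 (134220053 to 134229625, minus strand). Ncf4 (78244801 to 78262580, plus strand) and Rac2 (78559167 to 78572783, minus strand) share chromosome 15, with 296586 bases between them. Cyba overlaps Gm20388 and Ncf1 overlaps Gtf2ird2 on the opposite strand, and how the counting treated strand is not given in the sources used here. The other 3 genes overlap no annotated gene.

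Promoter sequence was available for 3 of the 5 genes, and all 3 are shown because with PF-9363, though not with SETBP1-D868N, Cybb and Cyba moved most of the 5 genes while Ncf1 moved less. Each line gives the 250 bases before the RefSeq start on the gene's own strand (GRCm38.p6), 5′ to 3′, and none of the RefSeq transcript. The windows are chrX:9469325-9469574 for Cybb, chr8:122432941-122433190 for Cyba and chr5:134229626-134229875 for Ncf1, all on the minus strand. The Cybb window lies inside the GENCODE M21 span given above, which begins further upstream than this RefSeq start. The Cybb motif positions therefore hold for the RefSeq start only. Capitals mark GAAA repeated after any 2 bases, a pair of the kind bound by interferon regulatory factors, and CCAAT, the CCAAT box, each as such or as its reverse complement.
Cybb: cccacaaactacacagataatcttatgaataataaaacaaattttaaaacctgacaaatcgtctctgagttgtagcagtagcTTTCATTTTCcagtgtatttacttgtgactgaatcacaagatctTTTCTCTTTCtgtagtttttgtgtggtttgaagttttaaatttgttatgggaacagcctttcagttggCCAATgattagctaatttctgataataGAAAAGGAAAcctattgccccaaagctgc
Cyba: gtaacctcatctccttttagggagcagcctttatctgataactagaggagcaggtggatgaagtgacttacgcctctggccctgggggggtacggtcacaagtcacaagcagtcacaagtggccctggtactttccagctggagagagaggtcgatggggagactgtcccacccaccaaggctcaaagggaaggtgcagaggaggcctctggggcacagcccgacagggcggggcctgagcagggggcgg
Ncf1: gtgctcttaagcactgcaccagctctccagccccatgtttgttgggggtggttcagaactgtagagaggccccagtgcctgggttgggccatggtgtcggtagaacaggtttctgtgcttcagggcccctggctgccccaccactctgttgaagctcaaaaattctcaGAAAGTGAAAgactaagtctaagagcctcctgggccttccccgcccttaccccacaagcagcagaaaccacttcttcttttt
The Cybb window held the GAAA pair at 3 places, beginning at −168 and −124 (reverse strand) and at −29 (forward strand) from the start, and CCAAT at −56. Ncf1 held the GAAA pair once, at −82 (forward strand), and Cyba held neither. Of 32851 RefSeq promoter windows of this length, 2.98% held the GAAA pair and 33.8% held CCAAT. Also searched on both strands were GAGGAA (in 23.3% of windows), GGAA and GAAA with any 2 bases between them (2.30%), TATAAA (12.4%) and TGACTCA (4.46%), none of which was found in the 3 windows. These motifs were chosen after the sequences had been seen, none overlaps another in these windows, and a match is a description of letters, not of binding.

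Levels of different genes can be compared only per length, here CPM per kilobase of the union of exons, a scale on which Cyba was highest in all 4 groups. With luciferase, the mean ± SD (n = 3) was 389 ± 7.81 for Cyba, 319.9 ± 6.30 for Rac2, 276 ± 7.34 for Ncf1, 109 ± 2.41 for Cybb and 97.4 ± 3.58 for Ncf4. With SETBP1-D868N the order was Cyba at 330.5 ± 12.3, Rac2 at 278 ± 8.88, Ncf1 at 217 ± 2.05, Ncf4 at 77.6 ± 3.77 and Cybb at 65.6 ± 2.41. The catalytic subunit thus stood above Ncf4 with luciferase and last with SETBP1-D868N on this scale, though not with the other measure of length given below.

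With DMSO (n = 4) Cyba stood at 323 ± 21.04 CPM per kilobase, Ncf1 at 229.8 ± 9.74, Rac2 at 223 ± 8.22, Ncf4 at 73.8 ± 3.29 and Cybb at 38.8 ± 3.42. Ncf1 and Rac2 overlapped there (220.3 to 243 against 213 to 233) and did not differ beyond their spread. With PF-9363 Cyba stood at 937 ± 46.0, Ncf1 at 319 ± 9.84, Rac2 at 277 ± 6.35, Cybb at 190.4 ± 11.1 and Ncf4 at 87.9 ± 1.38. No other neighbours in these orders overlapped. With the length of the longest transcript in place of the exon union, the luciferase order changed. Ncf1 then passed Rac2, and Ncf4 passed Cybb with values that overlapped (129 to 138 against 130.04 to 136), so that Cybb was last in both groups of the first experiment. The ranks in the other 3 groups were kept. With SETBP1-D868N, however, Rac2 and Ncf1 overlapped on this length (275 to 294 against 273 to 278), so their order there lay within the spread.

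**Figure D1:**
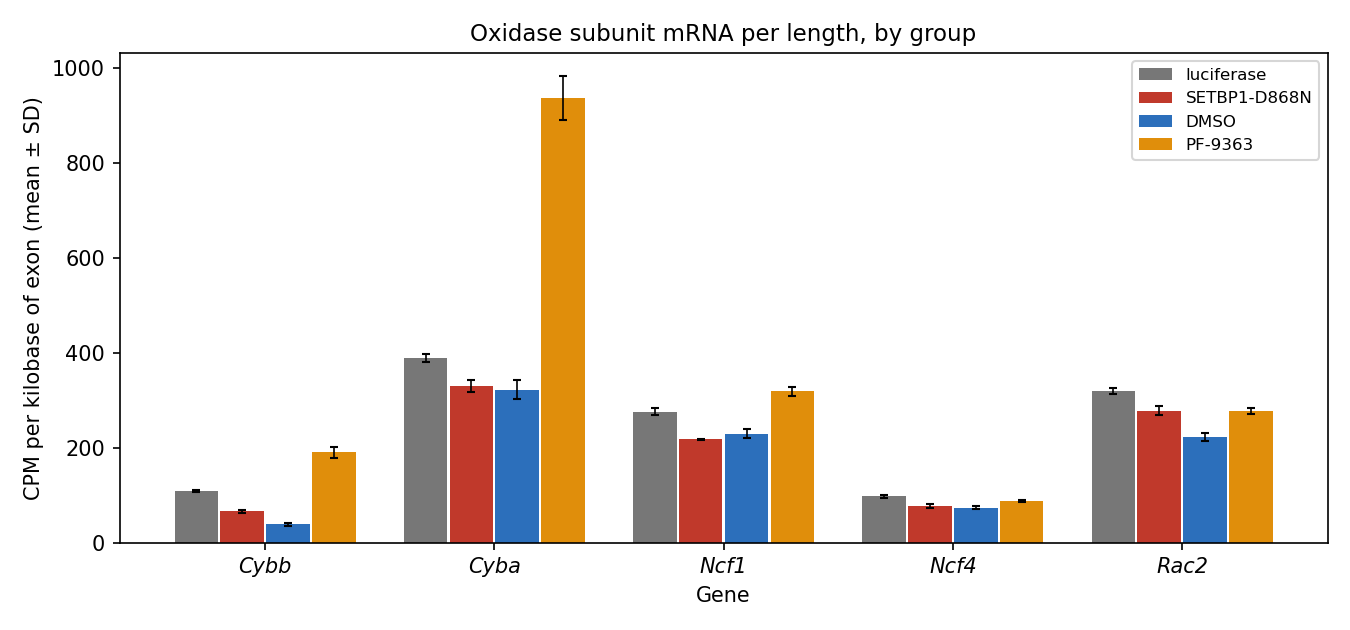
Level per length of the 5 subunit genes. Bars are mean CPM per kilobase of exon and error bars the SD over libraries (n = 3 for luciferase and SETBP1-D868N, n = 4 for DMSO and PF-9363); the experiments were scaled apart, so bars compare groups only within an experiment. Cyba is the tallest in every group, and Cybb passes Ncf4 with PF-9363 but not with DMSO.

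The first comparison asked how the genes differ in cells carrying SETBP1-D868N. All 5 fell, by 0.20 to 0.73 on the log2 scale, and all 5 had luciferase and SETBP1-D868N libraries that did not overlap. By edgeR's quasi-likelihood test (adjusted p under 0.05), 47.2% of all genes tested were called, 22.7% lower and 24.5% higher. The groups did not overlap for 56.7% of genes, 27.3% lower and 29.4% higher. Because so many genes were called, a call alone does not set the oxidase genes apart, and sizes are given with each. The median absolute log2 fold change over all genes tested was 0.19, close to the size of the change of Rac2. Of the genes tested, 75.7% had a higher log2 fold change than Cyba, 82.5% than Ncf1, 81.5% than Ncf4 and 73.4% than Rac2.

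Among the membrane subunits, Cybb stood at 618, 635 and 646 CPM in luciferase libraries 1 to 3 and at 379, 396 and 368 CPM in SETBP1-D868N libraries 1 to 3. The level with SETBP1-D868N was 0.602 of that with luciferase (log2 fold change −0.73, SE 0.030, edgeR adjusted p 1.01e-08). Of the genes tested, 6.05% had a change further below 0. Cyba stood at 413, 397 and 403 CPM with luciferase and at 356, 343 and 331 CPM with SETBP1-D868N. Every mutant library was below every control library, but the distance was smaller (log2 fold change −0.24, SE 0.030, edgeR adjusted p 4.55e-05). The 95% intervals of the 2 membrane subunits, −0.80 to −0.67 for Cybb and −0.30 to −0.17 for Cyba, did not overlap.

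Of the cytosolic subunits, Ncf1 stood at 982, 1034 and 1018 CPM with luciferase and at 802, 798 and 788 CPM with SETBP1-D868N (log2 fold change −0.35, SE 0.026, edgeR adjusted p 6.56e-07). Ncf4 stood at 189, 202 and 199 CPM with luciferase and at 161, 161 and 148 CPM with SETBP1-D868N (log2 fold change −0.33, SE 0.039, edgeR adjusted p 3.99e-05). The cytosolic pair thus lay at 0.787 and 0.797 of their luciferase levels. The GTPase gene Rac2 changed least, from 978, 1015 and 985 CPM to 861, 892 and 837 CPM (log2 fold change −0.20, SE 0.028, edgeR adjusted p 9.65e-05). The summed level of the 5 genes was 3180 to 3284 CPM in the luciferase libraries and 2472 to 2590.4 CPM in those with SETBP1-D868N.

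**Figure D2:**
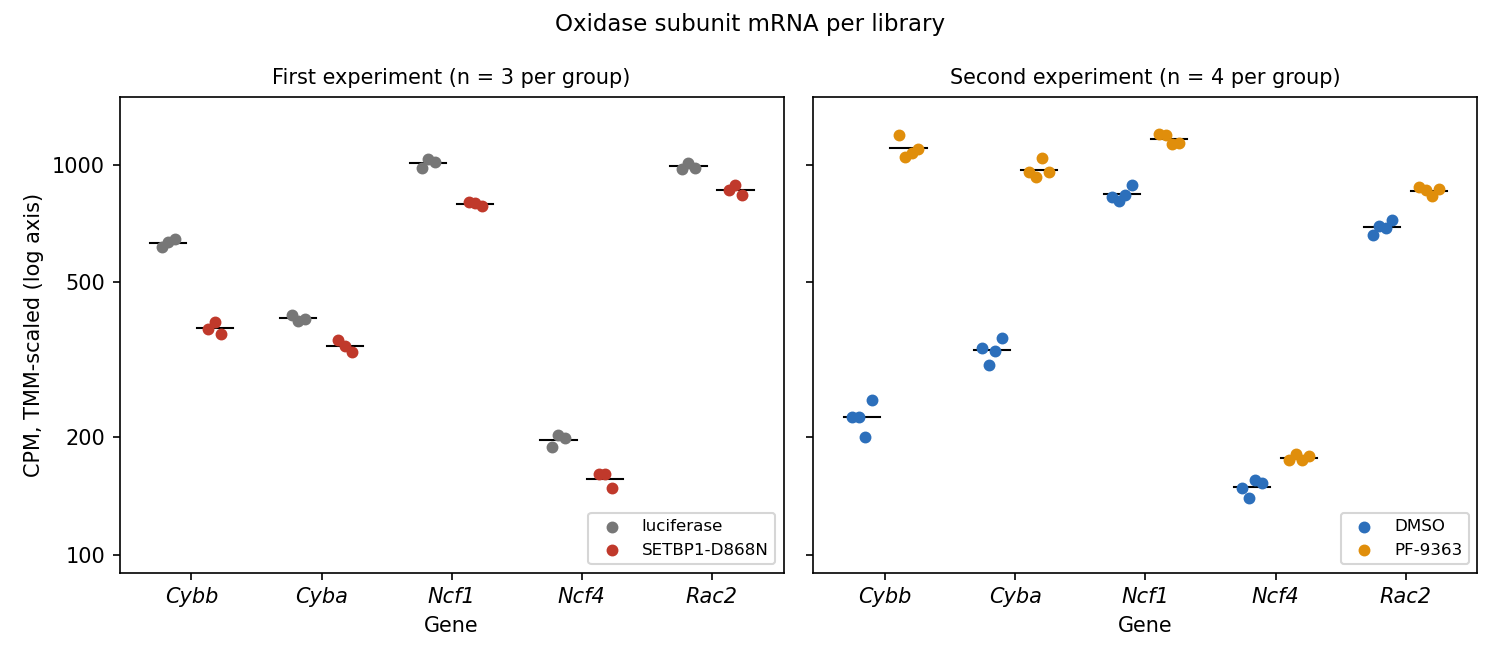
CPM of the 5 genes in every library, on a log axis, for the first experiment (left, n = 3 per group) and the second (right, n = 4 per group). Points are libraries and black lines group means. In the left panel every red group sits below its grey one, with the widest gap at Cybb; in the right panel Cybb and Cyba rise from at most 361 CPM with DMSO to at least 935 CPM with PF-9363.

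The effect of PF-9363 on cells that carry SETBP1-D868N was the question of the second comparison. All 5 rose by TMM-scaled counts, the 2 membrane subunits by 1.54 and 2.29 on the log2 scale and the other 3 by 0.25 to 0.47. DMSO and PF-9363 libraries did not overlap for any of the 5. Of all genes tested 76.0% were called, 36.6% higher and 39.4% lower, and 70.3% did not overlap, 34.0% higher and 36.3% lower. The median absolute log2 fold change over all genes tested was 0.65, larger than the rises of Ncf1, Ncf4 and Rac2. A higher log2 fold change than that of Ncf1 was found for 29.0% of genes, than that of Ncf4 for 37.4% and than that of Rac2 for 35.1%. The scaling matters here: by library size alone, the median log2 fold change of all genes was −0.27 in place of −0.038, a shift of −0.23, and 3 of the 5 genes, Cybb, Cyba and Ncf1, were called.

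Cybb stood at 226, 226, 201 and 249 CPM in DMSO libraries 1 to 4 and at 1198, 1051, 1073 and 1102 CPM in PF-9363 libraries 1 to 4. The lowest PF-9363 library was thus far above the highest DMSO library. Cybb rose 4.91-fold (log2 fold change 2.29, SE 0.068, edgeR adjusted p 6.81e-22), and 4.24% of the genes tested had a higher value. Cyba stood at 339, 308, 334 and 361 CPM with DMSO and at 959, 935, 1043 and 958 CPM with PF-9363. It rose 2.90-fold (log2 fold change 1.54, SE 0.063, edgeR adjusted p 8.60e-19), with 9.07% of genes higher. The 95% intervals of the log2 fold changes were 2.15 to 2.43 for Cybb and 1.41 to 1.67 for Cyba, and by library size alone the values were 2.07 and 1.31.

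Ncf1 stood at 829, 807, 839 and 891 CPM with DMSO and at 1201, 1198, 1133 and 1142 CPM with PF-9363 (log2 fold change 0.47, SE 0.058, edgeR adjusted p 2.58e-08). By library size alone this was 0.24, still called. Gtf2ird2, the gene on the opposite strand of Ncf1, stood at 8.99 and 10.2 CPM in the 2 groups of the first experiment and at 253 and 334 CPM in those of the second. Its log2 fold change with PF-9363 was 0.40 (SE 0.056), near that of Ncf1. Whether the 2 count tables treated strand alike is not given in the sources used here, and the part of Gtf2ird2 in the counts and change of Ncf1 was not tested.

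The smallest changes were those of p40phox and the GTPase. Ncf4 stood at 148, 140.1, 155 and 153 CPM with DMSO and at 175, 181, 175 and 179 CPM with PF-9363 (log2 fold change 0.25, SE 0.060, edgeR adjusted p 4.03e-04). Rac2 stood at 659.8, 699, 691 and 722 CPM with DMSO and at 877, 864, 832 and 867.998 CPM with PF-9363 (log2 fold change 0.31, SE 0.057, edgeR adjusted p 1.66e-05). By library size alone neither was called, with log2 fold changes of 0.022 for Ncf4 and 0.082 for Rac2. The summed level of the 5 genes was 2179 to 2375 CPM with DMSO and 4228 to 4409.9 CPM with PF-9363.

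Ratios between subunits within a library do not depend on the scaling between libraries, and 3 were compared in each experiment. In the luciferase libraries 1 to 3 there were 1.495, 1.597 and 1.604 Cybb counts per Cyba count, and in the SETBP1-D868N libraries 1.06, 1.15 and 1.11. The groups did not overlap, and the log2 ratio differed by −0.50, with an exact two-sided permutation p of 0.1, the smallest that 3 against 3 can give, and 0.2 adjusted over the 6 ratio tests. With DMSO the ratio was 0.666, 0.734, 0.601 and 0.691, and with PF-9363 it was 1.25, 1.12, 1.03 and 1.15. The groups again did not overlap, and the log2 ratio differed by 0.76 (exact permutation p 0.0286, the smallest for 4 against 4, and 0.0857 adjusted over the 6 ratio tests). The ratio thus moved in the direction of Cybb in both experiments. With these group sizes none of the 6 ratio tests could fall under 0.05 after adjustment, even with groups fully apart. The adjusted values therefore cannot decide whether a ratio differed.

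The ratio of Ncf1 to Ncf4 had a mean log2 value of 2.36 ± 0.015 with luciferase and 2.35 ± 0.058 with SETBP1-D868N, and the groups overlapped (exact permutation p 0.6). With DMSO it was 2.497 ± 0.049 and with PF-9363 2.72 ± 0.045, without overlap (difference 0.22, exact permutation p 0.0286, adjusted 0.0857). The limit on strand given above for Ncf1 holds for this ratio too. Rac2 was set against Rac1, its widely expressed relative, since either GTPase can serve the oxidase. Their log2 ratio was 0.91 ± 0.039 with luciferase, 0.89 ± 0.029 with SETBP1-D868N, 1.02 ± 0.040 with DMSO and 1.01 ± 0.067 with PF-9363. The groups overlapped in both experiments (exact permutation p 0.5 and 0.886), with ranges of 0.97 to 1.06 for DMSO and 0.96 to 1.08 for PF-9363.

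**Figure D3:**
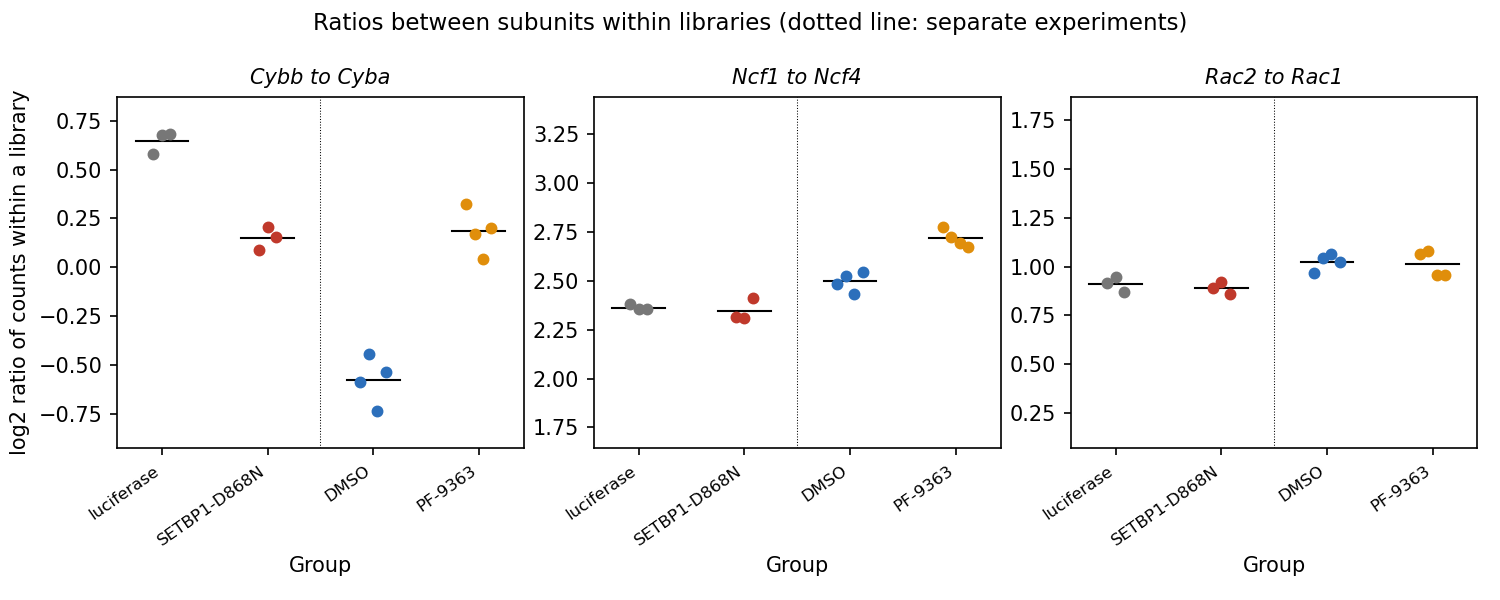
Log2 ratios of counts within each library for 3 gene pairs; points are libraries, black lines group means, and a dotted line parts the 2 experiments. All panels span the same height on the log2 scale. The Cybb to Cyba ratio is lower with SETBP1-D868N than with luciferase and higher with PF-9363 than with DMSO, while the Rac2 to Rac1 ratio overlaps in both.

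A set of 9 genes that assemble or activate the oxidase was examined next. In the first comparison 6 of the 9 fell, 0 rose and 3 were not called, with a median log2 fold change of −0.18 against 0.0043 over all genes tested, of which 22.7% fell. The largest fall was that of Prkcb, a protein kinase C that phosphorylates p47phox, from 91.2 to 57.9 CPM (log2 fold change −0.66, edgeR adjusted p 3.97e-08). Prex1, an exchange factor for Rac GTPases, fell by 0.49 and Prkcd, another protein kinase C, by 0.36 on the log2 scale. Hvcn1, the proton channel that balances the charge moved by the enzyme, fell by 0.27, Rac1 by 0.18 and Arhgdib, which holds Rac proteins in the cytosol, by 0.14. Cybc1, a chaperone of the membrane subunits, had a log2 fold change of −0.052, Rap1a, a GTPase found with the membrane subunits, −0.060 and Vav1, a Rac exchange factor, −0.035, none of them called. Vav1 became 0.014 by library size alone.

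With PF-9363, 7 of the 9 rose, 0 fell and 2 were not called, with a median log2 fold change of 0.53 against −0.038 over all genes, of which 36.6% rose. Hvcn1 rose from 137 to 331 CPM (log2 fold change 1.27, edgeR adjusted p 1.24e-16) and Prkcd from 283 to 672 CPM (1.25, edgeR adjusted p 1.53e-17). Prkcb rose by 0.98, Prex1 by 0.796, Vav1 by 0.53, Rap1a by 0.51 and Rac1 by 0.32 on the log2 scale. Arhgdib (−0.087) and Cybc1 (−0.0074) were not called. By library size alone 2 of the 9, Arhgdib (−0.32) and Cybc1 (−0.24), were called lower and the rise of Rac1 (0.091) was no longer called. The chaperone gene of the membrane subunits was thus not called higher under either scaling.

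**Figure D4:**
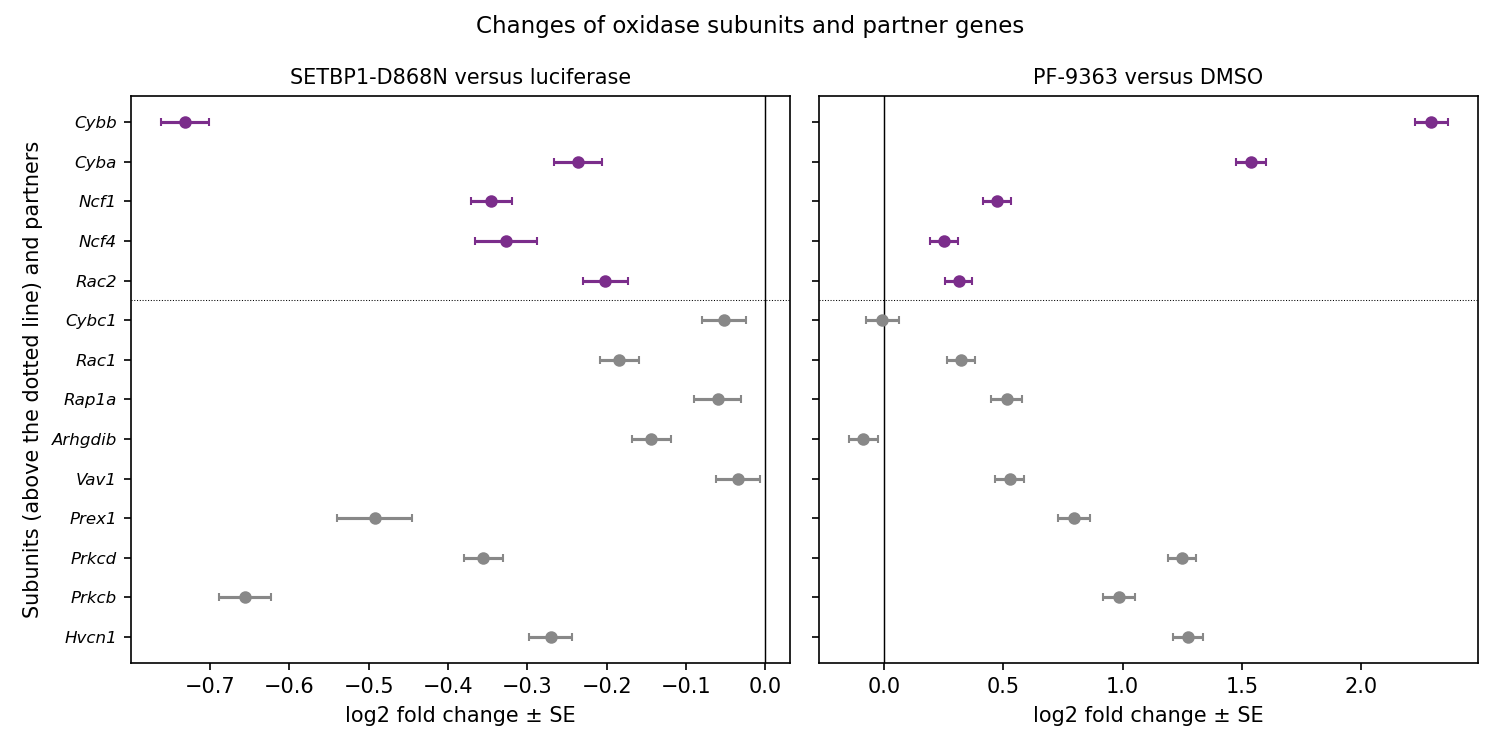
Log2 fold changes with their SE for the 5 subunit genes (purple, above the dotted line) and the 9 partner genes (grey), for SETBP1-D868N versus luciferase (left) and PF-9363 versus DMSO (right); the horizontal axes differ in range. All points lie below 0 on the left, and Cybb at 2.29 and Cyba at 1.54 lie furthest right on the right.

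The other members of the NOX and DUOX family, catalytic and regulatory genes of related oxidases, were nearly silent in the first experiment. Of 9 genes, 1 was tested there, Noxo1, the organizer of Nox1, at 0.98 and 0.76 CPM, and it was not called. In the second experiment 2 were tested and both fell: Nox1, from 9.12 to 3.37 CPM (log2 fold change −1.42, edgeR adjusted p 2.33e-07), and Noxo1, from 2.68 to 1.13 CPM (−1.25, edgeR adjusted p 0.00305). Of all genes tested with PF-9363, 39.4% fell and 36.6% rose. Nox1 overlaps Xkrx on its own strand and Cstf2 and Arl13a on the opposite one, and it stood at 0.109 CPM with luciferase, and whether its counts in the second experiment come from Nox1, or whether both tables treated strand alike, was not tested. Nox3, Nox4, Noxa1 and Duox2 had 0 counts in every library.

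Enzymes that handle superoxide and peroxide moved in both directions. In the first comparison 6 of 14 rose and 4 fell, with a median log2 fold change of 0.0087, where 24.5% of all genes rose and 22.7% fell. Mpo, myeloperoxidase, which makes hypochlorous acid from the peroxide that the oxidase supplies, rose from 2761 to 3643 CPM (log2 fold change 0.40, edgeR adjusted p 3.07e-07), opposite to the 5 oxidase genes. Prdx6, a peroxiredoxin, rose by 0.17, while Prdx5 fell by 0.38 and Sod3, the secreted superoxide dismutase, fell by 1.47 from 0.89 CPM. With PF-9363, 6 of 13 tested rose and 5 fell, with a median of 0.12, counts near the shares of all genes that rose (36.6%) and fell (39.4%). Mpo fell from 2320.3 to 6.35 CPM (−8.49, edgeR adjusted p 4.05e-07), again opposite to the oxidase genes. Prdx1 rose by 2.32 and Sod2, the mitochondrial superoxide dismutase, by 2.06, sizes close to that of Cybb, and Txnrd1, thioredoxin reductase, rose by 1.26.

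A list of 9 transcription factors known to act at oxidase genes or in phagocytes gave 4 higher and 5 lower in the first comparison (median −0.16). Of all genes tested there, 24.5% rose and 22.7% fell (median 0.0043). In the second comparison 4 were higher and 4 lower (median 0.13). These counts lay near the shares of all genes that rose (36.6%) and fell (39.4%), with a median of −0.038. Hoxa10 and Hoxa9 rose with SETBP1-D868N by 5.945 and 4.03 and fell with PF-9363 by 2.03 and 3.37 on the log2 scale, opposite to the oxidase genes in both. Cebpa rose by 0.52 with SETBP1-D868N and fell by 0.52 with PF-9363, also opposite to the oxidase genes. Cebpe, a factor of late granulocytes, fell by 0.33 with SETBP1-D868N and by 1.29 with PF-9363. Irf1 fell by 0.32 with SETBP1-D868N and rose by 1.05 with PF-9363, as the oxidase genes did. Spi1, which encodes PU.1, went from 353 to 293 CPM in the first comparison (−0.27, edgeR adjusted p 2.35e-06) and from 228 to 362 CPM in the second (0.67, edgeR adjusted p 3.05e-11). Irf8 went from 25.1 to 20.5 CPM (−0.29) and from 14.7 to 30.3 CPM (1.04), both called. Spi1 and Irf8 were picked from the list after their values had been seen. Of the rest, Cebpb moved in the same directions (−0.16 and 0.53, both called). Elf1 rose with SETBP1-D868N (0.24, called) and was not called with PF-9363 (0.13).

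Markers of phagocytes that carry the oxidase were counted beside these genes. In the first comparison 8 of 8 monocyte and macrophage markers and 8 of 8 markers of maturing neutrophils fell. Of all genes tested there, 22.7% fell and 24.5% rose. Summed over the list, the monocyte and macrophage markers stood at 1262 to 1285 CPM in the luciferase libraries and at 919.7 to 953 CPM in those with SETBP1-D868N. The neutrophil markers stood at 14910.4 to 15365 CPM and at 8012 to 9746 CPM. With PF-9363, 7 of 8 monocyte and macrophage markers rose and 1, Ly6c2, fell, and their sum went from a range of 1614 to 1698 CPM to one of 3355 to 3852 CPM. Most of this sum was Ly6c2 with DMSO (1206 CPM, and 308 CPM with PF-9363). With PF-9363 most of it was Mrc1 (2080 CPM, and 231 CPM with DMSO). Of the 8 neutrophil markers 4 rose, 1, Camp, fell by 2.15 on the log2 scale, and S100a8, S100a9 and Retnlg were not called, with sums of 11283 to 13621 CPM and 13659 to 15362 CPM. Over all genes tested with PF-9363, 36.6% rose and 39.4% fell, so the neutrophil count of rises lay near that share. The all-gene shares of each comparison also stand beside the marker counts of the next paragraph. No marker of either list was at 0 in all libraries of an experiment. The part of these markers in the changes of the oxidase genes was not tested.

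Eosinophils also carry the oxidase, and their markers did not follow it with PF-9363: of 5 eosinophil markers 4 were tested, of which 3 fell and 1 rose, and the sum went from 552 to 716 CPM with DMSO to 242 to 338 CPM. With SETBP1-D868N 1 of the 5 fell and 1 rose (638 to 688 CPM with luciferase, 515 to 642 CPM with the mutant). Mast cell and basophil markers rose in 6 of 7 cases with PF-9363, from 963 to 1231 CPM to 4214.5 to 5208 CPM in sum, and in the first comparison 3 rose and 4 fell (4326 to 4549 CPM and 3889 to 4073 CPM). Of the 6 dendritic cell markers 2 were tested with PF-9363: Itgax rose from 16.0 to 123 CPM and Flt3 fell from 2.66 to 0.70 CPM. The sum of the list (17.0 to 22.6 CPM with DMSO, 113 to 146 CPM with PF-9363) was thus mostly Itgax. With SETBP1-D868N 3 of the 5 tested dendritic cell markers fell (91.8 to 107.7 CPM and 63.8 to 75.5 CPM). Erythroid and megakaryocyte markers summed to 42.9 to 49.9 CPM with DMSO and 215 to 239 CPM with PF-9363, where 3 of the 4 tested rose. This sum was mostly Itga2b, which rose from 32.3 to 203 CPM (by 2.65 on the log2 scale). Hbb-bt rose by 1.15 and Pf4 by 0.45, and Klf1 was not called. In the first comparison 3 of these 6 rose and 2 fell (274 to 289.97 CPM and 294 to 321 CPM). Il7r, a lymphoid marker, fell from 26.2 to 15.1 CPM with SETBP1-D868N and rose from 11.6 to 83.0 CPM with PF-9363, the direction of the oxidase genes in both. Of the 5 stromal and endothelial markers only Pecam1, which leukocytes also express, was above 5 CPM in any group.

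Markers of the labelled cells of origin moved too. Ptprc fell by 0.41 with SETBP1-D868N and rose by 1.02 with PF-9363 on the log2 scale, and Kit, the receptor for SCF, fell by 0.66 and rose by 1.45. Ly6a, which encodes Sca-1, fell by 1.11 with SETBP1-D868N and was not called with PF-9363 (0.32). Cd34 rose by 0.27 with SETBP1-D868N and was not called with PF-9363 (0.17). Spn, which encodes CD43, rose by 0.33 with SETBP1-D868N and fell by 0.58 with PF-9363, opposite to the oxidase genes. The 5 summed to 1242.5 to 1256 CPM with luciferase, 1208 to 1230.3 CPM with SETBP1-D868N, 961 to 1034 CPM with DMSO and 1450.02 to 1536 CPM with PF-9363. The part of any of these markers in the oxidase results was not tested.

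The pattern of each gene over the 14 libraries was set beside that of 9339 others, as the root mean square difference in log2 CPM after removing each gene's mean within each experiment. The genes nearest to Cybb were Pirb, an inhibitory receptor of myeloid cells (0.094), Parp12, an ADP-ribosyltransferase (0.099), and Lyz2, lysozyme (0.10), with Pearson's r of 0.994 to 0.995. Nearest to Cyba were Mapk7 (0.054), Itm2c (0.055) and Rnh1 (0.063). Nearest to Ncf1 were Itm2b (0.045), Rasa3 (0.049) and Acaa1a (0.051), and to Ncf4 Rhog (0.053), Vps26c (0.054) and Atp2c1 (0.054). For Rac2 the nearest was Rac1 (0.041), followed by Bin2 (0.045) and Atp2c1 (0.046). None of the 15 places was taken by another oxidase subunit. Such distances describe 14 libraries in 4 groups.

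Among themselves, the cytosolic genes and Rac2 lay close together, with differences of 0.065 for Ncf4 and Rac2, 0.084 for Ncf1 and Rac2 and 0.092 for Ncf1 and Ncf4. Cybb and Cyba lay 0.34 apart. The membrane genes were further from the other 3, by 0.41 to 0.49 for Cyba and by 0.703 to 0.79 for Cybb. In these cultures the 5 genes thus moved in the same direction within each comparison but by different amounts. With SETBP1-D868N Cybb (−0.73) lay below the other 4 and Cyba (−0.24) between Rac2 (−0.20) and Ncf4 (−0.33), while with PF-9363 both membrane subunits lay above the other 3.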

How the data were processed

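Messenger RNA was sequenced in 14 libraries in 2 experiments. Per the labels' protocols, libraries were made from 500 ng of RNA with the Watchmaker mRNA kit (first experiment) or from 100 ng by Novogene (second). Raw counts by gene symbol were deposited by the authors, and the submitters' processing notes name STAR, DESeq2, GRCm38 and mm10 without roles or versions. Strand handling and annotation are not given in the sources used here.

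Everything else was computed here from the counts, in R 4.3.3. Low counts were removed with edgeR 4.0.16 (filterByExpr, minimum count 10, minimum total 15), and the rest were scaled by TMM and tested by edgeR's quasi-likelihood test with robust estimation, separately for each experiment, with Benjamini-Hochberg adjustment over all genes tested and a threshold of 0.05. Standard errors are the absolute log2 fold change over the square root of F. Ratios used counts plus 0.5 and exact two-sided permutation tests. The fit was tested on simulated data.

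Samples were grouped by title, and 0 columns were left unmapped. Libraries with the same number did not deviate together (r −0.097 to −0.037 between luciferase and SETBP1-D868N, −0.040 to 0.0075 between DMSO and PF-9363), so the numbers were not taken as pairs. No libraries of a group agreed within sampling noise (chi-square per degree of freedom 2.27 to 27.6).

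The 5 genes, the lists and the markers were chosen with earlier results of these data known. Some listed genes are not reported here. Named genes are the 5 subunits, the 9 partners, the 4 largest called changes of each other list and the 3 genes nearest in pattern among those with a mean of at least 5 CPM in both experiments. Spi1 and Irf8 were added to these. Elf1 and Cebpb are given in the text but were not followed through the alternatives as named genes. Alternatives were RLE size factors, library size alone, no filter beyond 1 count, DESeq2 1.42.0, limma-voom (limma 3.58.1), genes averaging 10 or more counts, no robust estimation, the replicate number as a block, a ratio pseudocount of 5, the longest transcript as length, and each library left out. Those applied to the lists beyond scaling and test, to the counts over all genes and to pattern distances were chosen after seeing the data.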

Additional observations from a re-analysis of the deposited data

How the results depend on the processing

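The 5 genes stayed lower with SETBP1-D868N and called under each alternative, leaving out single libraries included, with Cybb at −0.77 to −0.68. With PF-9363 all 5 stayed called higher under each alternative except library size alone, which called 3: Ncf4 (0.022) and Rac2 (0.082) were not called there. It also called 2 partner genes lower, against 0 by TMM: Arhgdib (−0.32) and Cybc1 (−0.24), and lost Rac1 (0.091). Library size alone brought the share of higher calls over all genes from 51.9% to 62.1% in the first comparison and from 48.1% to 36.2% in the second.

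Signs changed for genes that were not called. Vav1 became 0.014 in the first comparison by library size alone. Cybc1 became 0.018 by RLE and 0.019 by DESeq2 in the second, and with 1 library left out it ranged from −0.029 to 0.038, above 0 without DMSO 4 (0.012), PF-9363 2 (0.0079) or PF-9363 3 (0.038). Leaving out 1 library at a time, the difference in the log2 ratio of Ncf1 to Ncf4 with SETBP1-D868N ranged from −0.051 to 0.00094, and that of Rac2 to Rac1 with PF-9363 from −0.031 to 0.010. The Cybb to Cyba difference ranged from −0.53 to −0.46 and from 0.705 to 0.81.

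With the replicate block, 5 genes stayed lower and 5 higher, with Cybb at −0.73 and 2.297; it changed no call of the named genes. All 15 nearest genes were kept under both other scalings.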

Other observations

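Ncf4 and Rac2 enclose 10 protein-coding genes on chromosome 15, among them the cytokine receptor chains Csf2rb and Csf2rb2, which carry IL3 signals, and Il2rb. In the first comparison 7 of the 10 were tested, of which 5 fell and 1 rose, where 22.7% of all genes fell and 24.5% rose. Csf2rb fell by 0.34, Csf2rb2 by 0.58 and Il2rb by 1.14 on the log2 scale. With PF-9363, 6 were tested, of which 3 rose and 3 fell, near the shares of all genes that rose (36.6%) and fell (39.4%). Csf2rb rose by 1.76 and Csf2rb2 by 2.91, more than Ncf4 (0.25) and Rac2 (0.31) at the ends of the interval, while Kctd17 between them fell by 2.47. These genes were chosen by position after the values of Ncf4 and Rac2 had been seen.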
